A study of Homo sapiens with 8 samples.

Results

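The BCL2 family members followed here were 10 genes, 7 that encode BH3-only proteins (BCL2L11, BMF, BBC3, PMAIP1, BIK, BAD and BID) and 3 that encode survival proteins (MCL1, BCL2L1 and BCL2). They were chosen by name, with earlier results of these data known. Each gene was read by its brightest probe set, the one with the highest mean signal over all arrays, out of 18132 genes that had a probe set with a single symbol. All 10 passed the filter on low signal and were among the 10527 genes tested. The RNA came from H3122 lung adenocarcinoma cells, which carry the EML4-ALK fusion kinase, and from their ceritinib-resistant derivatives H3122-LR3 and H3122-LR2. LR3 cells were measured with ceritinib and untreated. LR2 cells were measured with ceritinib, with crizotinib and untreated, and so were parental H3122 cells. Ceritinib and crizotinib both inhibit ALK, each was given at 1000 nM for 6 h, and every one of the 8 conditions had 1 array. How the resistant lines were derived, and whether each is 1 clone, is not given in the sources used here, and all cells were grown in serum.

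BH3-only proteins start apoptosis at mitochondria by binding survival proteins, or by activating the pore-forming effectors BAX and BAK1 directly. BIM, encoded by BCL2L11, and PUMA, encoded by BBC3, bind all main survival proteins, while NOXA, encoded by PMAIP1, binds mainly MCL1, and BAD binds BCL2 and BCL-XL (encoded by BCL2L1) but not MCL1. In cancers driven by a mutant kinase, ERK signalling is known to keep BIM low at the RNA and the protein level, and FOXO transcription factors are known to induce BCL2L11, BBC3 and BMF when AKT is inactive. The arrays measured RNA alone, so the stability and phosphorylation of these proteins were not observed.

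Promoter windows from RefSeq (GRCh38.p14) are shown for a pair of genes whose RNA rose with crizotinib, BCL2L11 and BMF, and for the gene whose RNA fell, PMAIP1. Each is the 250 bases before the annotated start, 5′ to 3′ on the strand of the gene. Such windows were matched for 8 of the 10 members. Capitals mark motif matches on either strand, none of which overlapped. The FOXO core is GTAAACA. The GC box is GGGCGG. The cAMP response element half-site is TGACGT.
BCL2L11, chr2:111120664-111120913, plus strand: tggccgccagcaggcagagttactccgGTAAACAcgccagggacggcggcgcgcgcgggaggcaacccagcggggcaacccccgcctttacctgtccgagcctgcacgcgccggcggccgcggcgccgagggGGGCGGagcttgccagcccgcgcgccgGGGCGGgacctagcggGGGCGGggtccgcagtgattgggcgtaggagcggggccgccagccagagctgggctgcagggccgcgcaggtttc
BMF, chr15:40108880-40109129, minus strand: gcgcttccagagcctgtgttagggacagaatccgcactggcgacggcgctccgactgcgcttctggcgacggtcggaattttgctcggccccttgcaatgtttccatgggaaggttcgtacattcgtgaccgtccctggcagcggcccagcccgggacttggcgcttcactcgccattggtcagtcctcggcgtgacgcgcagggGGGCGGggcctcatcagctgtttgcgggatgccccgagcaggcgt
PMAIP1, chr18:59899746-59899995, plus strand: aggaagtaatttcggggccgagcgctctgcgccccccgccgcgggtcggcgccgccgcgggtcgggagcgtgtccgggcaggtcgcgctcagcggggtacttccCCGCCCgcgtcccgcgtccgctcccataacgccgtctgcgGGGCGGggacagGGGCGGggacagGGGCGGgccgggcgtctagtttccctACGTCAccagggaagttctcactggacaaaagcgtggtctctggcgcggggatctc
The BCL2L11 window held 1 FOXO core, 223 bases before the start, a motif found in 2.98% of all 35116 promoter windows of this length. It also held 3 GC boxes, the BMF window held 1 and the PMAIP1 window held 4. GC boxes occurred in 42.6% of all windows. The PMAIP1 window held 1 half-site on the opposite strand, 56 bases before the start, and 7.10% of all windows held one. A match describes letters in the window, and neither it nor its absence shows what binds there.

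Across the series, the medians of 7 arrays lay between 5.31 and 5.36 and that of LR2 with ceritinib was 5.46. Of 10 epithelial and lung adenocarcinoma markers, 10 were above the floor of 5.36 on every array. Fibroblast markers were all below it (0 of 5), and of 4 leukocyte markers on the array CD68 alone reached it, at most at 5.44. Of 4 endothelial markers, VWF, CDH5 and KDR reached the floor, at signals up to 6.52, and PECAM1 did not. The summed signal of the endothelial list was 22.41 to 22.99 over all arrays. A signal is given on the log2 scale, a difference is a difference of such signals, and a value after ± is the standard error from limma.

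The first question was which members changed when ALK was inhibited. With crizotinib, measured in LR2 and parental cells, 4 of the 7 BH3-only genes rose (BMF, BBC3, BCL2L11 and BIK), 1 fell (PMAIP1), and none of the 3 survival genes was called. Over all genes tested, 2.82% were called higher and 0.940% lower with crizotinib (297 and 99 of 10527, limma with line and agent terms, adjusted p under 0.05). The median difference was 0.60 over the 7 BH3-only genes and -0.04 over the 3 survival genes, against 0.02 over all genes tested. Ceritinib, averaged over all lines, gave no call for any gene tested (0%), with 2017 genes and 5 of the 10 members at an unadjusted p under 0.05.

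BCL2L11 encodes BIM, the BH3-only protein most closely tied to cell death after kinase inhibition in lung cancer. Its signal was 7.43 in LR3 cells with ceritinib, against 7.32 untreated. In LR2 cells it was 8.23 with ceritinib and 8.67 with crizotinib, against 7.88 untreated. In parental cells it was 8.23 with ceritinib and 8.20 with crizotinib, against 7.45 untreated. Both LR3 arrays were thus the lowest of the 8, though LR3 with ceritinib (7.43) was nearly equal to untreated parental cells (7.45). Treated parental cells matched LR2 cells with ceritinib. The 4 highest arrays were all inhibitor arrays of LR2 and parental cells, and the residual standard deviation of the fit was 0.15, beyond which only 8.67 stood apart from the other high arrays. BCL2L11 rose by 0.69 ± 0.15 with crizotinib, or 1.62-fold (higher in 2 of 2 matched pairs, adjusted p = 0.0448). The call was lost with quantile normalization (adjusted p = 0.0616), with centred arrays (0.0601) and without the filter on low signal (0.0662), and the mean of all BCL2L11 probe sets rose by 0.34 (adjusted p = 0.0393). With ceritinib the difference over 3 lines was 0.41 ± 0.12, which was not called (adjusted p = 0.141).

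BMF encodes a BH3-only protein that is held at the cytoskeleton in healthy cells. Its signal was 7.82 in LR3 cells with ceritinib, against 7.07 untreated. In LR2 cells it was 7.72 with ceritinib and 8.21 with crizotinib, against 7.19 untreated, and in parental cells it was 8.84 and 8.89, against 7.68. Every inhibitor array was higher than the 1 untreated array of its line, and how many of all genes share this was not counted. Untreated parental cells (7.68) lay just below LR2 cells with ceritinib (7.72). BMF rose by 1.10 ± 0.13 with crizotinib, or 2.14-fold (2 of 2 matched pairs, adjusted p = 0.0222), the largest difference among the members that rose. Its ceritinib difference was 0.81 ± 0.11 (3 of 3 matched pairs), at an adjusted p = 0.0638.

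BBC3, which encodes PUMA, had signals of 7.63 in LR3 cells with ceritinib, against 7.13 untreated. LR2 cells had 7.59 with ceritinib and 7.79 with crizotinib, against 6.95 untreated, and parental cells had 8.23 and 8.11, against 7.48. As for BMF, BCL2L11 and BIK, each line was higher on every inhibitor array than untreated, on the brightest probe set. For BCL2L11 in LR3 cells this was by 0.11, within its residual standard deviation of 0.15. BBC3 rose by 0.70 ± 0.10 with crizotinib (1.63-fold, adjusted p = 0.0261), and differed by 0.63 ± 0.09 with ceritinib (adjusted p = 0.0638). The ceritinib differences of BMF and BBC3 were called in 2 of 14 alternatives each, at an adjusted p of 0.0474 without probe sets of cross-hybridization suffixes and of 0.0324 with a variance trend.

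PMAIP1, which encodes NOXA, moved the other way. It had signals of 7.97 in LR3 cells with ceritinib, against 8.22 untreated, and in LR2 cells 7.83 with ceritinib and 7.01 with crizotinib, against 8.10 untreated. Parental cells had 7.61 with ceritinib and 7.52 with crizotinib, against 8.73 untreated, the highest signal of the 8 arrays. PMAIP1 fell by 1.08 ± 0.19 on the log2 scale with crizotinib, a 2.11-fold difference (lower in 2 of 2 matched pairs, adjusted p = 0.0359). Its ceritinib difference of -0.55 ± 0.17 was not called (adjusted p = 0.142).

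BIK encodes a BH3-only protein of the endoplasmic reticulum. Its signal was 8.96 in LR3 cells with ceritinib against 8.63 untreated, 8.94 and 9.25 in LR2 cells with ceritinib and crizotinib against 8.65 untreated, and 9.49 and 9.41 in parental cells with ceritinib and crizotinib against 8.76 untreated. The 3 untreated arrays were the 3 lowest. BIK rose by 0.60 ± 0.12 with crizotinib (1.51-fold, adjusted p = 0.0402), a call that was lost with quantile normalization (0.0577), with centred arrays (0.0583) and without the filter (0.0585). Its ceritinib difference of 0.45 ± 0.10 was not called (adjusted p = 0.0886). BAD, whose protein is held inactive by phosphorylation downstream of growth factor signalling, ranged from 7.92 in untreated parental cells to 8.60 in LR2 cells with crizotinib. Its crizotinib difference of 0.31 ± 0.10 was not called (adjusted p = 0.113). BID, whose protein is activated by caspase cleavage, ranged from 9.32 to 9.80 and differed by -0.06 ± 0.09 with crizotinib (adjusted p = 0.743).

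Of the survival genes, MCL1, which encodes a short-lived protein, had signals of 12.96 in LR3 cells with ceritinib, against 13.06 untreated. LR2 cells had 12.82 with ceritinib and 12.50 with crizotinib, against 12.93 untreated, and parental cells had 12.53 and 12.63, against 12.92. Each inhibitor array was lower than its untreated array, but the crizotinib difference of -0.34 ± 0.11 (-0.585 to -0.085, 95% interval) was not called (adjusted p = 0.113). The other MCL1 probe sets, all dimmer, differed by -0.88 to -0.00 with crizotinib. The mean of all MCL1 probe sets differed by -0.50 (adjusted p = 0.0514). MCL1 was called in 2 of 14 alternatives, at an adjusted p of 0.0434 with a variance trend and of 0.0201 without the parental ceritinib array.

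BCL2L1 had the narrowest range, 7.20 to 7.37, and differed by 0.02 ± 0.08 with crizotinib (-0.167 to 0.199, 95% interval). BCL2 ranged from 5.26 to 5.56, around the floor of 5.36, and 5 of 8 arrays lay above it. Its crizotinib difference was -0.04 ± 0.11, at signals not clearly above background.

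The crizotinib calls rested on few arrays. Without any 1 of 4 arrays (parental with crizotinib, untreated parental, LR2 with crizotinib or untreated LR2) 0 of 10527 genes were called by limma, so 0 members were, with 1244 to 1917 genes at an unadjusted p under 0.05. Without the LR2 ceritinib array, whose median stood apart, 2 members were called (BMF and BBC3, against 5 with all arrays), and 143 genes in all against 396, and the PMAIP1 difference was -1.04 (adjusted p = 0.0516). Without the parental ceritinib array, which leaves only the resistant lines with ceritinib, 1529 genes and 6 members were called with crizotinib.

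**Figure D1:**
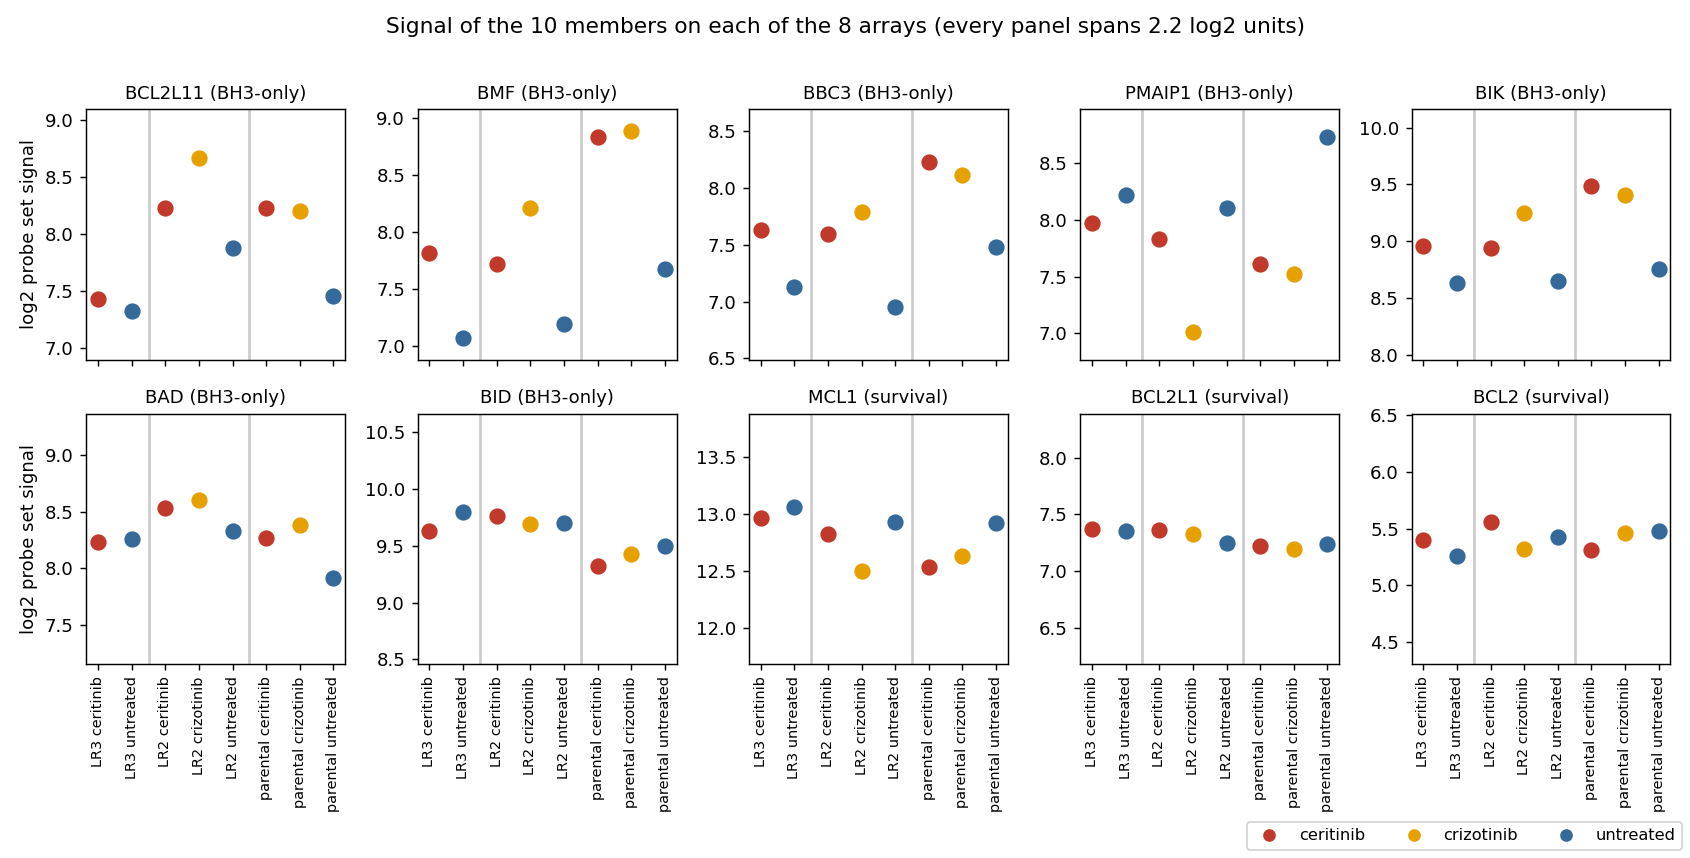
Log2 probe set signal (vertical axes, 2.2 log2 units in every panel) of the 10 genes on each of the 8 arrays (horizontal axis, 1 point per array), coloured by agent and split by line. On these brightest probe sets, BMF, BBC3, BCL2L11 and BIK are higher with inhibitor in every line, BCL2L11 in LR3 cells by only 0.11. PMAIP1 is highest in untreated parental cells at 8.73, and BCL2L1 stays between 7.20 and 7.37.

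The probe sets of a member often differed in size. With crizotinib, all 4 BMF, 3 BIK, 2 BBC3, 2 BAD, 2 PMAIP1 and 6 MCL1 probe sets had the sign of the brightest. The sign of the brightest was held by 3 of 4 BID, 2 of 3 BCL2L1 and 5 of 6 BCL2 probe sets. The second BBC3 probe set differed by 0.13, against 0.70 for the one used, and their mean rose by 0.41 (adjusted p = 0.0366). The other BMF probe sets differed by 0.37 to 0.73, against 1.10 for the one used, and the mean of all BMF probe sets rose by 0.67 (adjusted p = 0.0242). BCL2L11 had 14 probe sets, of which 13 had a positive crizotinib difference, and the 8 with a mean signal above the floor differed by 0.04 to 0.73. BCL2L11 makes several transcripts, and which of them each probe set reads is not given in the probe table.

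**Figure D2:**
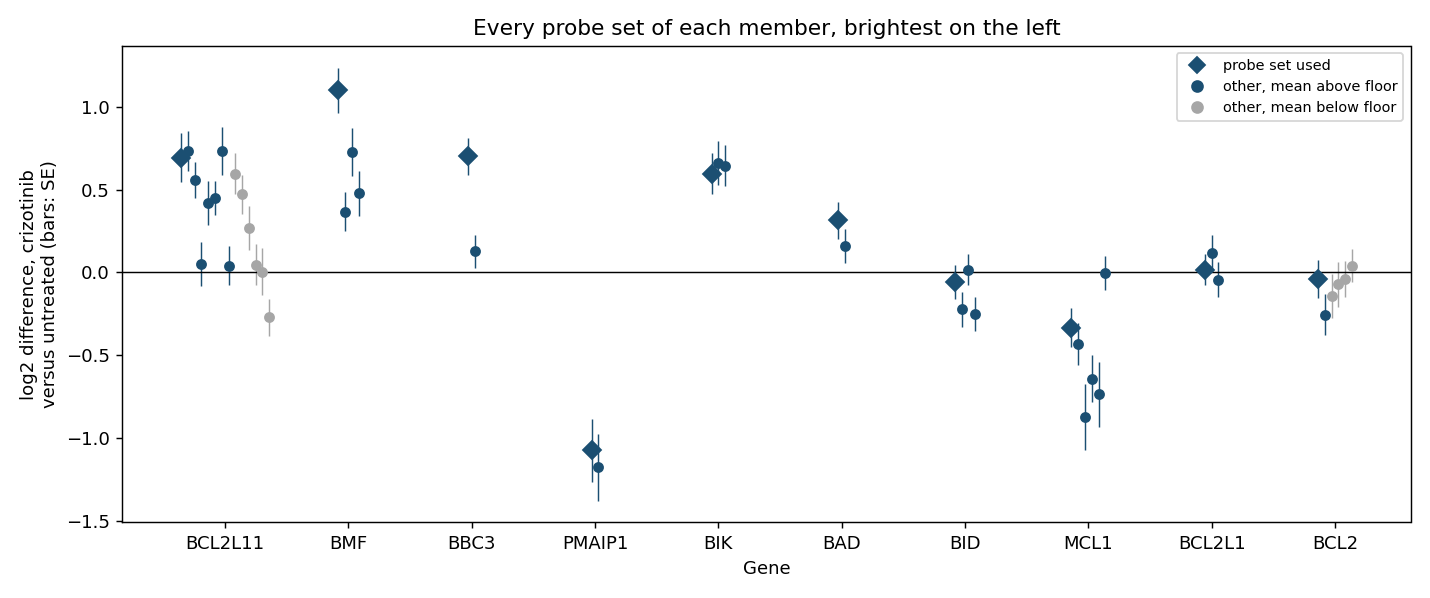
Log2 difference with crizotinib, against untreated, for every probe set of each gene, each fitted on its own in limma (bars, standard errors, n = 2 matched pairs), with the brightest on the left as a diamond and those below the signal floor in grey. PMAIP1 probe sets lie at -1.08 and -1.18, and those of BCL2L11 spread from -0.27 to 0.73.

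The next question was whether the inhibitor response differed between the lines. Differences between single arrays carry no test, and a member was counted when it differed by at least 0.5. In LR3 cells with ceritinib 2 members were higher by that much (BMF and BBC3) and 0 lower, where 0.940% of genes tested were higher and 0.446% lower. In LR2 cells with ceritinib 2 were higher (again BMF and BBC3) and 0 lower, against 1.86% and 0.209% of genes. The median of the LR2 ceritinib array was 0.12 above that of the untreated LR2 array, and the LR3 medians differed by 0.04. With each array centred on its median, 1 member was at least 0.5 higher in each: BBC3 in LR2 cells, at 0.52 beside 0.41 for BMF, and BMF in LR3 cells, at 0.71 beside 0.46 for BBC3. In LR2 cells with crizotinib 4 were higher (BCL2L11, BMF, BBC3 and BIK) and PMAIP1 lower, against 3.55% and 3.39% of genes. The same 4 genes were higher, and PMAIP1 lower, in parental cells with ceritinib, where 4.41% and 4.0% of genes were higher and lower. That also held in parental cells with crizotinib, where the shares were 5.12% and 3.71%. Comparisons within a line share its untreated array.

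On the brightest probe sets, the ceritinib differences of BCL2L11, PMAIP1, BMF, BBC3 and BIK were smaller in the resistant lines than in parental cells. The ceritinib difference of BCL2L11 was 0.11 in LR3 and 0.35 in LR2 cells, against 0.78 in parental cells. That of PMAIP1 was -0.25 in LR3 and -0.27 in LR2 cells, against -1.12 in parental cells. For BMF it was 0.75 in LR3 and 0.53 in LR2 cells, against 1.16 in parental cells, and for BBC3 it was 0.50 and 0.64, against 0.75. For BIK it was 0.33 in LR3 and 0.29 in LR2 cells, against 0.73 in parental cells. These values depended on the probe set. The other 3 BMF probe sets had ceritinib differences of 0.05 to 0.14 in LR3 and -0.14 to 0.53 in LR2 cells, against 0.42 to 0.79 in parental cells. The second BBC3 probe set had 0.12 in LR3 and 0.13 in LR2 cells, against 0.32 in parental cells. The other 7 BCL2L11 probe sets above the floor had -0.04 to 0.43 in LR3 and -0.19 to 0.64 in LR2 cells, against -0.04 to 0.53 in parental cells. The second PMAIP1 probe set was close to the first, at -0.39 in LR3 and -0.34 in LR2 cells, against -1.24 in parental cells. For MCL1 the ceritinib difference was -0.10 in LR3 and -0.11 in LR2 cells, against -0.39 in parental cells. Its other probe sets had -0.43 to 0.09 in LR3 and -0.26 to 0.05 in LR2 cells, against -1.08 to -0.19 in parental cells. The crizotinib differences in LR2 and parental cells were 0.79 against 0.75 for BCL2L11, 1.02 against 1.21 for BMF, 0.84 against 0.63 for BBC3, -1.09 against -1.21 for PMAIP1 and 0.60 against 0.65 for BIK.

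**Figure D3:**
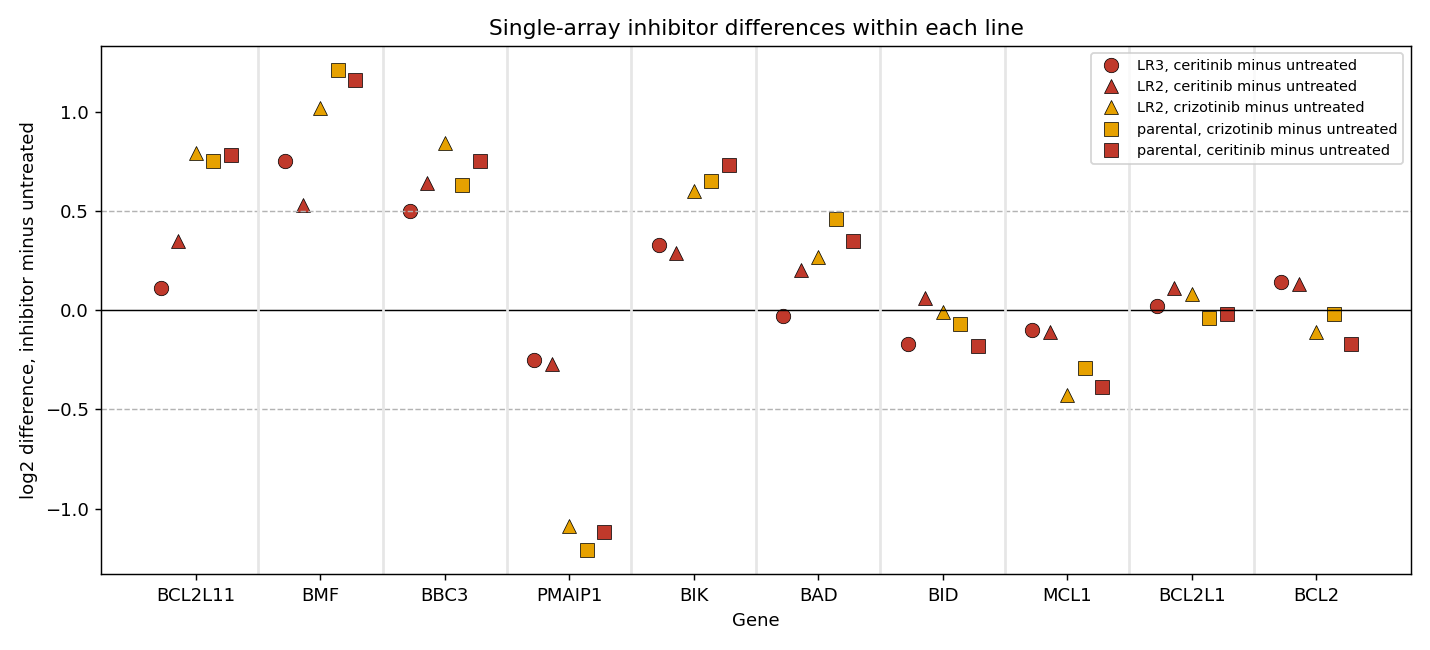
Log2 difference between the inhibitor array and the untreated array of the same line (vertical axis) for each gene (horizontal axis), with symbols for the line (circle LR3, triangle LR2, square parental) and colours for the agent; dashed lines mark differences of 0.5. PMAIP1 lies between -1.21 and -1.09 in parental cells and in LR2 cells with crizotinib, and at -0.27 and -0.25 with ceritinib in the resistant lines.

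No line difference in response was called for any gene tested (0% for LR3 minus parental, LR2 minus parental and LR3 minus LR2), in a model of 6 cells that took both inhibitors as 1 condition and had 2 residual degrees of freedom. At an unadjusted p under 0.05 there were 505, 251 and 418 genes, in that order of comparisons, and of the members BAD alone, in LR3 minus parental. The responses themselves gave no call in any line either (0% in LR3, in LR2 and in parental cells, with 499, 1015 and 1849 genes at an unadjusted p under 0.05). For BCL2L11 the response in LR3 minus that in parental cells was -0.65 ± 0.29 (-1.38 to 0.070, 95% interval, adjusted p = 0.910), so a difference of 0 lay inside the interval. For PMAIP1 it was 0.92 ± 0.49 (-0.315 to 2.15, adjusted p = 0.910), for BMF -0.44 ± 0.31 (-1.23 to 0.355) and for BBC3 -0.19 ± 0.20 (-0.681 to 0.301). The LR2 minus parental values were -0.20 ± 0.27 for BCL2L11, 0.48 ± 0.45 for PMAIP1 and -0.41 ± 0.29 for BMF. The inhibitors gave unlike values in LR2 cells, which enter both the spread and the estimates of this model. For PMAIP1 the LR2 response averages -0.27 with ceritinib and -1.09 with crizotinib. The parental response also averages both inhibitors, while that of LR3 has ceritinib alone. This model therefore does not test the ceritinib response by itself.

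Ceritinib minus crizotinib, at the same dose and time, was tested in the additive model for the 10 members, and no gene tested was called (0%, with 637 genes and 1 member, PMAIP1, at an unadjusted p under 0.05). The differences were 0.53 ± 0.19 for PMAIP1 (0.082 to 0.976, 95% interval, adjusted p = 0.771), -0.28 ± 0.15 for BCL2L11 (-0.618 to 0.056) and -0.29 ± 0.13 for BMF (-0.595 to 0.024). Between single arrays of LR2 cells, ceritinib minus crizotinib was 0.82 for PMAIP1, -0.44 for BCL2L11 and -0.49 for BMF, against 0.09, 0.03 and -0.05 in parental cells. Without the parental ceritinib array 401 genes and 3 members were called, PMAIP1 at 0.87 (adjusted p = 0.00229), BCL2L11 at -0.51 (adjusted p = 0.0371) and BMF at -0.48 (adjusted p = 0.0477). That fit has ceritinib in the resistant lines alone, and LR2 is its only line with both inhibitors. It does not describe ceritinib in parental cells.

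Genes transcribed downstream of ERK are commonly read as a measure of the pathway's activity. DUSP6, a phosphatase of ERK, had a ceritinib difference of -0.13 in LR3 and -0.28 in LR2 cells, against -5.02 in parental cells, and its crizotinib difference was -4.53 in LR2 and -4.48 in parental cells. SPRY4, a feedback inhibitor of the same pathway, had ceritinib differences of -0.17 in LR3 and -0.31 in LR2 cells, against -2.99 in parental cells. The median over 18 ERK output genes was -0.06 in LR3 and -0.09 in LR2 cells with ceritinib, against -1.67 in parental cells. With ceritinib in the resistant lines DUSP6 was near its untreated signal. There, on the brightest probe sets, BCL2L11 was higher by 0.11 in LR3 and 0.35 in LR2 cells and BMF by 0.75 and 0.53. The other BMF probe sets differed by 0.05 to 0.14 in LR3 and by -0.14 to 0.53 in LR2 cells. With each array centred on its median, the brightest probe set of BCL2L11 was higher by 0.07 in LR3 and 0.23 in LR2 cells. That of BMF was then higher by 0.71 and 0.41. With crizotinib, between single arrays, 17 of the 18 genes were at least 0.5 lower in LR2 and 17 in parental cells. Over all genes tested the shares were 3.39% and 3.71%. In the additive model 3 of the 18 genes were called lower and 0 higher (median -1.44, against 0.02 over all genes tested). They were SPRY4 (-3.25 ± 0.65, adjusted p = 0.0416), PHLDA1 and SPRED1. DUSP6 at -4.08 ± 1.06 was not called (adjusted p = 0.0667). That model fits a single ceritinib difference for all lines. The unlike ceritinib values of DUSP6 enter its spread and also its crizotinib difference, which was -4.53 in LR2 and -4.48 in parental cells between single arrays. Which signal drove any member was not tested.

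**Figure D4:**
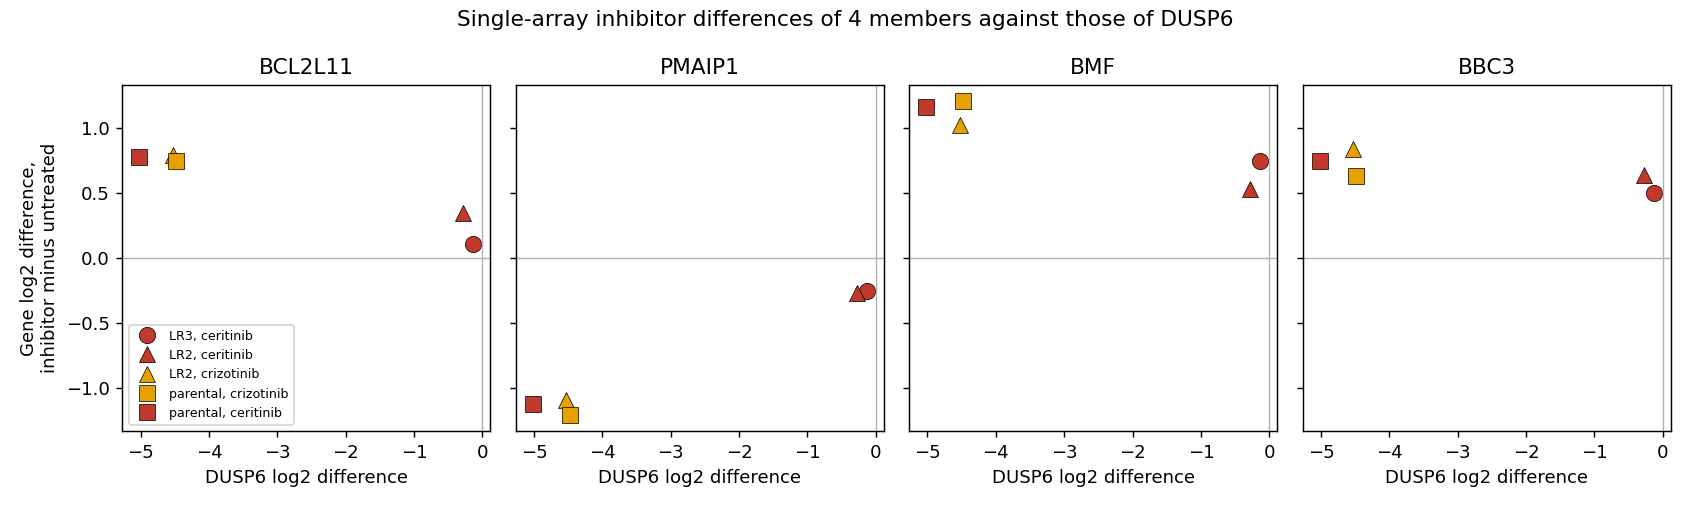
Log2 difference, inhibitor minus untreated, of BCL2L11, PMAIP1, BMF and BBC3 (vertical axis) against that of DUSP6 (horizontal axis), with 1 point per inhibitor array (5 in all). The LR3 and LR2 ceritinib arrays lie near 0 for DUSP6. There, on the brightest probe sets alone and without centring the arrays, BMF is at 0.75 and 0.53 and BCL2L11 at 0.11 and 0.35.

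Of 12 tested FOXO factors and targets, 6 rose with crizotinib and 0 fell (median 0.47, against 0.02 over all genes tested). Over all genes 2.82% rose and 0.940% fell, and every call in these lists was lost without any 1 of the 4 arrays named above. FBXO32, a ubiquitin ligase subunit, rose by 1.70 ± 0.20 (adjusted p = 0.0222), KLHL24 by 1.94 ± 0.24, the cyclin CCNG2 by 0.97 ± 0.14 and the CDK inhibitor CDKN1B by 0.75 ± 0.16. With ceritinib FBXO32 was higher by 1.19 in LR3 and 0.74 in LR2 cells, against 1.79 in parental cells. Of 9 tested ATF4 and CHOP genes, a stress pathway known to induce PMAIP1, 3 fell and 0 rose (median -0.49): TRIB3 by 1.30 ± 0.20, CHAC1 by 1.28 ± 0.23 and ATF3 by 0.77 ± 0.12. Of 13 tested p53 targets, a group that BBC3 and PMAIP1 belong to, 2 rose (TP53INP1 by 0.84 ± 0.12 and XPC by 0.47 ± 0.09) and 1 fell (CDKN1A by 0.62 ± 0.11), with a median of -0.02.

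The rest of the death machinery had few calls with crizotinib. Of 10 tested other BCL2 family genes 1 rose, the mitophagy receptor BNIP3 (0.44 ± 0.09, adjusted p = 0.0401), and 0 fell. The pore-forming effectors BAX (-0.00 ± 0.09, adjusted p = 0.994) and BAK1 (-0.09 ± 0.08, adjusted p = 0.517) were not called. None of 11 tested genes of the mitochondrial apoptosis machinery was called (median 0.02), and neither was any of 10 genes that act on the turnover of BIM and MCL1 (median -0.03).

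The last question was whether the resistant lines differed from parental cells across agents. In LR3 cells 2 members were lower (BMF and BBC3) and 1 higher (BID), where 12.1% of genes tested were lower and 9.53% higher. In LR2 cells the same pair was lower and 2 members were higher (BID and BAD), against 9.68% of genes lower and 12.8% higher. Both lines were set against the same parental arrays. LR3 differed from LR2 in 1 member, BCL2L11, which was lower, where 12.3% of genes were lower and 7.29% higher. With 10 members, counts of 1 or 2 are near these shares over all genes. They do not set the members apart from other genes.

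BMF was lower by 0.79 ± 0.13 in LR3 cells (1.73-fold, lower in 2 of 2 matched pairs, adjusted p = 0.0061) and by 0.76 ± 0.11 in LR2 cells (1.70-fold, lower in 3 of 3, adjusted p = 0.00331). Between single arrays the LR3 differences were -0.61 untreated and -1.02 with ceritinib. In LR2 cells they were -0.49 untreated, -0.68 with crizotinib and -1.12 with ceritinib. BBC3 was lower by 0.43 ± 0.10 in LR3 (adjusted p = 0.0209) and by 0.50 ± 0.09 in LR2 cells (adjusted p = 0.00588), with untreated differences of -0.35 and -0.53. Every matched pair of arrays was lower in the resistant line for both genes. The LR2 calls of BMF and BBC3 held without each array in turn, and were lost without the agent term (adjusted p = 0.222 and 0.255). In LR3 the BMF call was lost without the LR3 ceritinib array (-0.75, adjusted p = 0.0682), and that of BBC3 without either LR3 array or without the parental ceritinib or untreated array (-0.53 to -0.33, adjusted p = 0.0625 to 0.186). Without the agent term both LR3 calls were lost (adjusted p = 0.137 for BMF and 0.232 for BBC3). With the 2 matched pairs of LR3 and parental arrays alone no gene was called by limma (3092 at an unadjusted p under 0.05). BMF was at -0.81 (adjusted p = 0.103) and BBC3 at -0.47 (adjusted p = 0.117). The mean of the BBC3 probe sets was lower by 0.31 in LR2 (adjusted p = 0.0172), against 0.50 for the brightest.

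BCL2L11 was the 1 member called between the resistant lines. It was lower by 0.72 ± 0.15 in LR3 than in LR2 cells (1.65-fold, lower in 2 of 2 matched pairs, adjusted p = 0.0118), with single-array differences of -0.56 untreated and -0.80 with ceritinib. Against parental cells it was not called in LR3 (-0.42 ± 0.15, adjusted p = 0.0750) or in LR2 (0.30 ± 0.12, adjusted p = 0.123). In LR3 the difference from parental cells was -0.13 untreated and -0.80 with ceritinib, and in LR2 it was 0.43 untreated, 0.47 with crizotinib and 0.00 with ceritinib. All 8 BCL2L11 probe sets above the floor were lower in LR3 than in parental cells. Of all 14, 3 were called when fitted on their own, and the mean of all BCL2L11 probe sets was lower by 0.28 (adjusted p = 0.0258). Of the 14 BCL2L11 probe sets 12 were lower in LR3 than in LR2 cells. Among the 14, 7 were called, and the mean of all 14 was lower by 0.45 (adjusted p = 0.00377). The call between the resistant lines was lost without the LR3 ceritinib array (-0.49, adjusted p = 0.137), without the untreated LR2 array (-0.73, adjusted p = 0.0574) and without the agent term (-0.89, adjusted p = 0.0664). In LR2 cells BCL2L11 was called against parental cells without the parental ceritinib array (0.48, adjusted p = 0.00648).

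BID was higher by 0.29 ± 0.09 in LR3 (adjusted p = 0.0494) and by 0.30 ± 0.08 in LR2 cells (adjusted p = 0.0257). Its signals were 9.63 to 9.80 on the 5 resistant arrays and 9.32 to 9.50 on the 3 parental arrays. How many of all genes separate the lines in this way was not counted. All 4 BID probe sets were higher in both lines. BAD was higher by 0.30 ± 0.09 in LR2 cells (adjusted p = 0.0435) and differed by 0.13 ± 0.10 in LR3 (adjusted p = 0.402). These differences were under 1.25-fold. The LR3 call of BID was lost without any 1 of 7 arrays (adjusted p up to 0.287), its LR2 call without any 1 of 5 (up to 0.104), and the BAD call without any 1 of 5 (up to 0.189). Some of these calls were also lost under other settings, that of BAD with quantile normalization (adjusted p = 0.0686), centred arrays (0.0553), no filter (0.0761) or no agent term (0.158). That of BID was lost without the filter in LR2 (0.0502) and in LR3 (0.0953), and in LR3 also with the mean of its probe sets (0.0711), without probe sets of cross-hybridization suffixes (0.0550) and with matched arrays alone (0.126). With arrays left out, the values without a call were 0.24 to 0.35 for BID in LR3, 0.23 to 0.33 for BID in LR2 and 0.21 to 0.34 for BAD.

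The line differences of PMAIP1 had opposite signs untreated and with ceritinib, as single arrays with no test. Untreated, it was lower by 0.51 in LR3 and by 0.63 in LR2 than in parental cells, and with ceritinib it was higher by 0.36 in LR3 and 0.22 in LR2 cells. With crizotinib LR2 cells were lower than parental cells by 0.51. Across agents it was not called in LR3 (-0.13 ± 0.19, adjusted p = 0.684) or LR2 (-0.31 ± 0.17, adjusted p = 0.220). Without the parental ceritinib array both were called, at -0.46 in LR3 (adjusted p = 0.0143) and -0.58 in LR2 (adjusted p = 0.00188). MCL1 was higher than in parental cells by 0.43 in LR3 and 0.29 in LR2 cells with ceritinib, and by 0.14 and 0.01 untreated, and was called in neither line (0.24 ± 0.11 and 0.06 ± 0.09). BIK (-0.30 ± 0.12 in LR3 and -0.27 ± 0.10 in LR2), BCL2L1 (0.14 ± 0.08 and 0.09 ± 0.07) and BCL2 (-0.11 ± 0.11 and 0.02 ± 0.09) were not called.

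**Figure D5:**
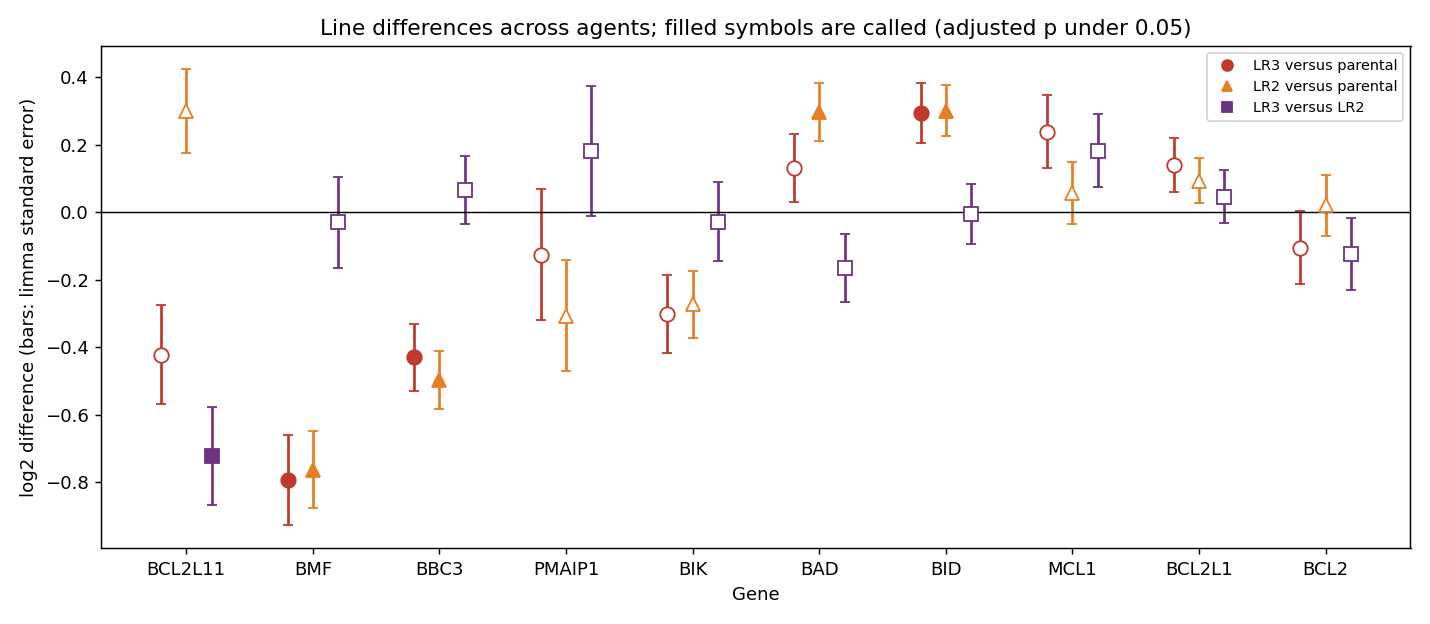
Log2 difference between lines across agents (vertical axis) for each gene (horizontal axis), from the additive limma model over 8 arrays, with bars for standard errors and filled symbols for calls at an adjusted p under 0.05. BMF and BBC3 are lower in LR3 and LR2 cells than in parental cells, and BCL2L11 is lower in LR3 than in LR2 cells by 0.72.

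Of the other BCL2 family genes, 3 of 10 tested were higher and 3 lower in LR3 than in parental cells, and 1 was higher and 0 lower in LR2. For this and the other lists, the shares over all genes were 9.53% higher and 12.1% lower in LR3, and 12.8% higher and 9.68% lower in LR2. BAK1 was higher in LR3 (0.28 ± 0.08) and in LR2 (0.25 ± 0.07), at adjusted p = 0.0350 and 0.0313. BAX was lower in LR3 (-0.40 ± 0.09, adjusted p = 0.0190) and not called in LR2 (-0.10 ± 0.08, adjusted p = 0.392). In LR3 the less studied relatives BCL2L14 (-0.49 ± 0.10) and BCL2L12 (-0.43 ± 0.09) were also lower, and BCL2L13 (0.33 ± 0.08) was higher. In the apoptosis machinery, BIRC2, a caspase-pathway ubiquitin ligase, was lower in LR3 (-0.67 ± 0.08, adjusted p = 0.00181), and AIFM1 was higher in LR3 (0.36 ± 0.10) and LR2 (0.34 ± 0.08). Of 10 genes for the turnover of BIM and MCL1, 3 were higher in LR2, among them BTRC (0.44 ± 0.11), a ubiquitin ligase subunit that targets BIM, and RPS6KA3 (0.41 ± 0.10), an ERK-activated kinase, and 0 were called in LR3. FOXO factors and targets had 6 of 12 lower and 1 higher in LR3, and 6 lower and 0 higher in LR2, among them FBXO32 (-1.30 ± 0.20 in LR3 and -1.19 ± 0.17 in LR2). The median of that list was -0.41 in LR3 and -0.36 in LR2, against 0.01 and 0.02 over all genes tested. Of 18 ERK output genes 1 was higher and 0 lower in LR3 (ETV4, 0.85 ± 0.16) and in LR2 (SPRY2, 1.33 ± 0.31). The ERK output median was 0.655 in LR3 and 0.368 in LR2. Between single arrays with ceritinib, 18 of 18 were at least 0.5 higher than in parental cells in LR3 and 17 in LR2. Over all genes tested, 652 and 958 of 10527 were. Untreated, the ERK output medians were -0.13 in LR3 and -0.15 in LR2. The p53 targets had 1 of 13 higher and 3 lower in LR3, and 1 higher and 1 lower in LR2, with CDKN1A higher in LR3 by 0.85 ± 0.11. The ATF4 and CHOP genes had 1 of 9 higher and 1 lower in LR3, and 0 higher and 1 lower (DDIT4) in LR2. Such counts of 1 in a list are near the shares over all genes, and for the ERK output genes they average over agents with unlike differences.

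Over the 8 arrays, which share lines and agents, the genes with the highest Pearson r to BCL2L11 were E2F8 (0.997), GPBP1L1 (0.995), FAM117B (0.990), ALCAM (0.988) and GULP1 (0.988). For BMF, the member with the widest range (1.82), they were FBXO32 (0.999), DNMBP (0.990), KIF2C (0.988), PPM1A (0.988) and RESF1 (0.987). Among members, BMF had an r of 0.977 with BIK, 0.972 with BBC3 and 0.611 with BCL2L11, while BCL2L11 had an r of -0.861 with PMAIP1 and -0.892 with MCL1. With 10527 genes and 8 points, such values describe these arrays only.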

How the data were processed

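Biotin-labelled RNA, amplified from its 3' end, was hybridised to 8 single-colour arrays, per the labels' protocols. The authors made the values with RMA, per the submitters' processing notes, and deposited them as log2 signal of each probe set; the software and version are not given in the sources used here. Of 49395 probe sets, 44988 that were not controls had 1 symbol in the platform's table, 1832 had several and 2473 had none. Each of 18132 genes was read by its brightest probe set and tested when it exceeded 5.36, the 50th percentile of all values, in at least 2 arrays. No further normalization was applied. limma 3.58.1 in R 4.3.3 fitted line and agent terms (3 residual and 4.99 prior degrees of freedom), or 6 cells of line by inhibitor (2 and 3.43), with Benjamini-Hochberg adjustment over 10527 genes, and was tested on simulated data. The number of arrays limits the precision, and p-values measure only the spread between these arrays, which nothing ties to separate cultures. Members and lists were chosen with earlier results of these data known. The text names all 10 members, and of other lists at most 4 called genes with the largest differences, fewer in places, plus BAX, BAK1, DUSP6 and SPRY4. Alternatives covered normalization, filter, probe set, variance prior, agent term and left-out arrays.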

Additional observations from a re-analysis of the deposited data

Results flagged for a closer look

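BCL2L1, which encodes BCL-XL, had inhibitor differences of 1 sign in LR2 cells (0.11 with ceritinib and 0.08 with crizotinib) and of the other in parental cells (-0.02 with ceritinib and -0.04 with crizotinib), which are opposite signs on the brightest probe set. The difference in response, LR2 minus parental, was 0.125 ± 0.13 and was not called (limma adjusted p = 0.998). Of the 3 BCL2L1 probe sets only the brightest had a positive difference in response, the values ran from -0.27 to 0.125, and with each array centred on its median the LR2 ceritinib difference was -0.01, so the direction was not stable.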

How the results depend on the processing

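No fit with a replicate number as a block could be made, since the labels give no such numbers; the agent term pairs arrays of 1 agent across lines, and matched arrays alone were fitted in pairs for LR3 versus parental. Over 16 alternative settings 1600 values of members were recomputed. Of these 1425 kept sign and call, 69 lost a call, 13 gained one, 93 changed sign without a call on either side, and no called value changed sign. Members called in LR2 versus parental (4) were 2 with no filter on low signal, 1 with no agent term and 2 to 5 with an array left out. In LR3 versus parental (3) they were 1 with no agent term, 0 with matched arrays alone and 0 to 3 with an array left out, and in LR3 versus LR2 (1) they were 0 with no agent term and 0 to 1 with an array left out. With crizotinib (5) they were 3 (BMF, BBC3 and PMAIP1) with quantile normalization, with centred arrays or without the filter, and 0 to 6 with an array left out. With ceritinib (0) they were 2 without cross-hybridization suffixes or with a variance trend. For ceritinib versus crizotinib (0) they were 0 to 3 with an array left out. With centred arrays, chosen after seeing the data, the members at least 0.5 higher with ceritinib between single arrays were 1 in LR3 and 1 in LR2 (2 in each as deposited), and the other 8 such counts were unchanged. Counts over all genes in LR2 versus parental (2369) were 1478 with no agent term and 1146 to 2116 with an array left out. In LR3 versus parental (2274) they were 0 with matched arrays alone and 632 to 2311 with an array left out, and in LR3 versus LR2 (2064) 710 to 2630. With crizotinib (396) they were 258 with quantile normalization, 151 without the filter, 797 with a variance trend and 0 to 1529 with an array left out. With ceritinib (0) they were 22 without cross-hybridization suffixes, 61 with a variance trend and 0 to 3 with an array left out, and for ceritinib versus crizotinib (0) 0 to 401. Quantile normalization and centring changed the share of higher calls from 57.0% to 45.6% and 50.3% in LR2, from 37.2% to 47.5% and 53.8% in LR3 versus LR2, and from 75.0% to 63.6% and 61.4% with crizotinib, and centring from 44.1% to 55.1% in LR3. The cause of these changes was not tested, beyond the fewer arrays or further genes that some settings hold.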
